A study of Mus musculus with 33 samples.

Results

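The growth factor receptors of hepatocytes described here are 10 genes chosen by name: Egfr, Erbb2, Erbb3, Met, Fgfr1, Fgfr2, Fgfr3, Fgfr4, Klb and Insr. Of these, 9 encode receptors of the tyrosine kinase class, and Klb encodes beta-Klotho, a membrane co-receptor with no kinase. Each gene was represented by the probe set that carries its symbol alone and has the highest mean over all columns of the table. All 10 were measured, among 18193 genes in all, and together they are read by 30 probe sets. No filter on low values was applied.

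Expression was measured on 21 Affymetrix arrays of mouse liver at 12 months of age, on a mixed background of FVB/NT, 129S1/Svlmj and C57BL/6NT. Normal liver was read on 7 wildtype arrays (wt) and on 5 of the E2f3a knock-out (3aKO). Spontaneous hepatocellular carcinoma was read on 5 arrays of the E2F1 knock-in (1KI) and on 4 of the E2F3b knock-in (3bKI), so genotype and tumour state cannot be told apart in 1KI and 3bKI. The locus of each knock-in, and the cells in which an allele acts, are not given in the sources used here. The study provides its values in 2 normalization runs. Run 1 holds wt, 3aKO and 1KI, run 2 holds wt, 3aKO and 3bKI, and the wt and 3aKO arrays are the same arrays in both. The tumour groups therefore share their controls and were never set against each other.

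Receptor tyrosine kinases sit in the cell membrane. Most pair up when a ligand binds outside the cell, and the paired kinases phosphorylate each other and docking proteins inside it. From there the signal runs through the RAS and MAPK kinases and through PI3 kinase and AKT to division, survival and metabolism. In hepatocytes EGFR and MET carry the main growth signals of liver regeneration, FGFR4 with beta-Klotho receives the gut hormone FGF15 and lowers bile acid synthesis, and the insulin receptor sets glucose and lipid output. MAPK signalling also switches on its own inhibitors, among them the Sprouty, Spred and dual-specificity phosphatase genes.

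The starts of 4 of these genes are shown because their values carry the results below: Egfr, whose level spread most among the livers, and Met, Fgfr4 and Klb, which were lower in the E2F3b knock-in tumours than in the E2f3a knock-out livers. The sequences are RefSeq's for GRCm38.p6, 5′ to 3′ on the gene's own strand, and all 4 genes lie on the plus strand. The Egfr window is chr11:16751953-16752252, that of Met is chr6:17463707-17464006, that of Fgfr4 is chr13:55152568-55152867 and that of Klb is chr5:65348161-65348460. Each window covers the promoter and the first transcribed bases. Capitals mark E2F-like strings (TTCCCGC or else TTGGCGC or else TTGCCGC or else TTCGCGC) and the SP1-like string GGGCGG on either strand. Matches that touch or overlap, as at the start of the Met window, run together.
Egfr: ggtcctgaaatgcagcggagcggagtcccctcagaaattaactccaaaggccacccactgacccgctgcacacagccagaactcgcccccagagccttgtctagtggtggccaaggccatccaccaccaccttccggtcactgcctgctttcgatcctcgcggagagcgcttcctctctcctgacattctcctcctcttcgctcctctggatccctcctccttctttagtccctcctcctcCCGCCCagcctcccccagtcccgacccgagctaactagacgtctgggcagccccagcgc
Met: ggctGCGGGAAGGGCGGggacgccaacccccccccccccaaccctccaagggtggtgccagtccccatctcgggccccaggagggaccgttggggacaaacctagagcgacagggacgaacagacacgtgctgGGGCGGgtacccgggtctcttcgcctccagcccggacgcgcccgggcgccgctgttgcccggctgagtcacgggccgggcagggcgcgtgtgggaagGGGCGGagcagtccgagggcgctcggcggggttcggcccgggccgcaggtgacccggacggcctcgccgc
Fgfr4: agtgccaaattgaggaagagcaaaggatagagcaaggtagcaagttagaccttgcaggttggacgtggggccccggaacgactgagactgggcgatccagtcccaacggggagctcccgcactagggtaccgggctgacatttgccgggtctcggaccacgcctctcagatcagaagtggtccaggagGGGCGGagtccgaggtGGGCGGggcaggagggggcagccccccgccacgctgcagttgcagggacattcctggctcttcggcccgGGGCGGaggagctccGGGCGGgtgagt
Klb: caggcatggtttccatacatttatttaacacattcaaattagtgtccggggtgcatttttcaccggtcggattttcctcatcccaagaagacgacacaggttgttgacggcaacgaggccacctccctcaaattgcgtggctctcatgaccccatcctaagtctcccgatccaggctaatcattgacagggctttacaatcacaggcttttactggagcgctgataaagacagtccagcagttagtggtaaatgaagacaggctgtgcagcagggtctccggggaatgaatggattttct
The Met window held 1 E2F-like match and 3 SP1-like matches, with 75.7% G and C. The Fgfr4 window held 4 SP1-like matches and the Egfr window held 1, and neither held an E2F-like match. Klb had no match of either kind and 48.3% G and C, against a median of 52.7% over 32851 promoters of the table. Promoters were matched for 7 of the 10 genes, with 2 for Fgfr3, and not for Erbb3, Fgfr1 or Insr. Over the 8 windows, 2 held an E2F-like string (Met and 1 of the Fgfr3 windows), against 9.57% of all promoters. A first search with 6 longer strings of 8 or 9 letters had matched 0 of the 8 windows and 3.89% of all promoters, and the strings were shortened after that result, so the count depends on the strings. SP1-like strings were in 5 of the 8 windows and in 35.7% of all promoters.

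The labelled tissue was checked against its markers. The hepatocyte markers Alb, Ttr and Apoa1 lay at a log2 value of 14.1 or more on every array, and 9 of the 10 fixed hepatocyte markers were measured. Others were less even: the lowest value was 9.57 for Cyp2e1, with a median of 14.06, and 11.34 for Apob. In run 1 the mean of the 9 ran from 12.30, in 1KI 4, to 13.18 in 1KI, from 12.90 to 13.21 in wt and from 13.04 to 13.20 in 3aKO. In run 1 E2f3, the gene that encodes both E2f3a and E2f3b, averaged 6.64 ± 0.21 in 3aKO (SD, n = 5) and 6.84 ± 0.18 in wt (SD, n = 7), which did not differ beyond the spread (limma, adjusted p = 0.7). E2f3 in 1KI was at 7.41 ± 0.28 (SD, n = 5), with every tumour above every wt liver, and its log2 change of 0.57 ± 0.13 (SE) against wt did not pass (limma, adjusted p = 0.078), nor did 0.38 ± 0.11 (SE) without 1KI 3 and 1KI 4 (adjusted p = 0.312). In run 2 it was at 6.82 ± 0.20 (SD, n = 4) in 3bKI against 6.71 ± 0.19 (SD, n = 7) in wt (limma, adjusted p = 0.66). E2f1 in 1KI was at 6.19 ± 0.24 (SD, n = 5) against 6.02 ± 0.15 (SD, n = 7) in wt (limma, adjusted p = 0.389). Whether these probe sets lie in the altered parts of the genes is not given in the sources used here, so these values do not check the labels. Sex, which the labels leave out, was read from Xist and 3 Y-linked genes and the female arrays numbered 3 of 7 in wt, 3 of 5 in 3aKO and 2 of 5 in 1KI, with the rest male. In 3bKI all but 3bKI 2, whose sex was unclear, were female. The tumours 1KI 3 and 1KI 4 stood apart on the first principal component of run 1, at 61.0 and 69.8, where the other 1KI tumours lay between -5.30 and 5.08. Both were read as male. The change of each receptor in 1KI against wt is given with and without them. Nothing says whether arrays of a group came from separate animals, so p-values measure the spread between these arrays.

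The receptors differed in how much they varied among normal livers. All values are log2 expression values of 1 probe set, so levels are compared between arrays and never between genes. Egfr spanned 8.04 to 11.22 over the 7 wt arrays of run 1 with a median of 10.24, and its 3aKO values were 9.38, 11.88, 10.39, 10.12 and 8.07. The range was 3.80 in 3aKO and 3.18 in wt, against at most 1.60 for any other receptor in either group. Met, by contrast, stayed between 9.72 and 10.36 over all 12 normal livers, Insr between 9.26 and 10.02, and Fgfr4 between 9.44 and 10.06.

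**Figure D1:**
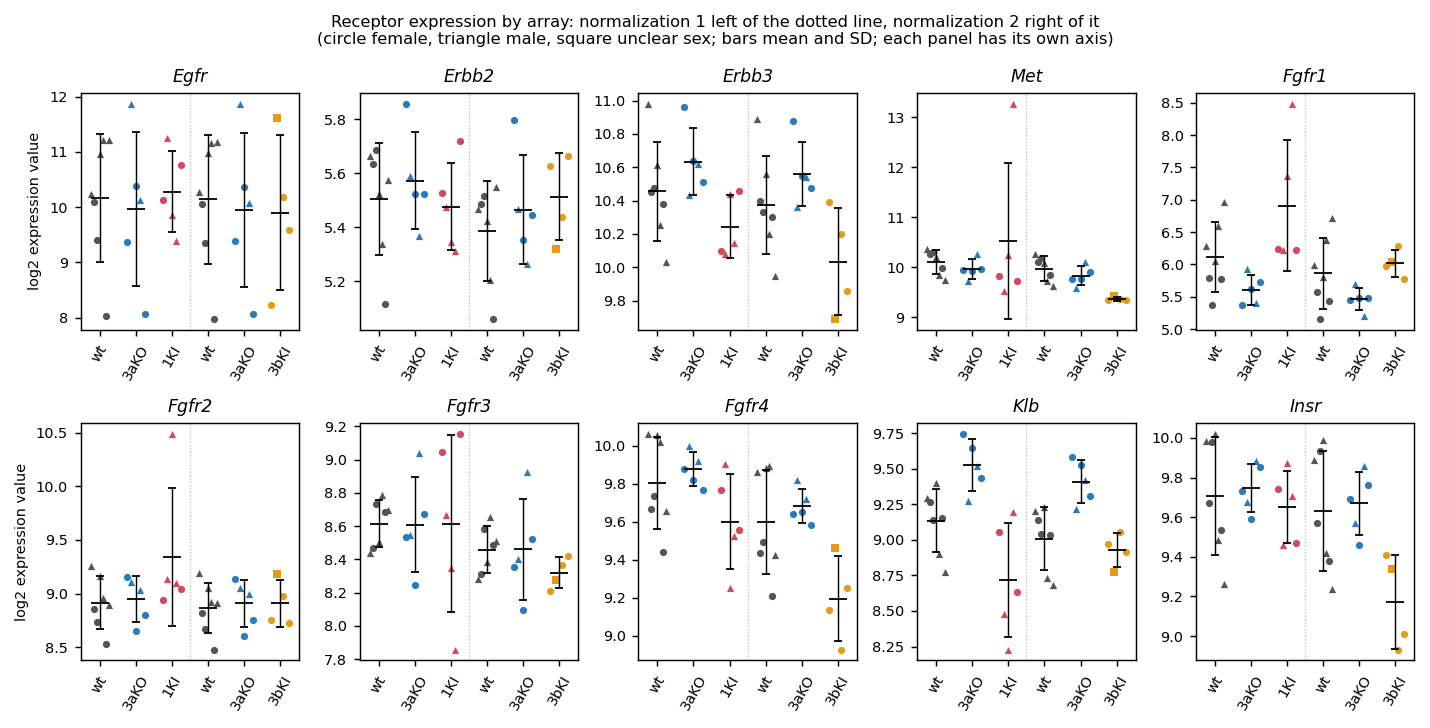
Log2 expression value of each receptor gene on every array, with wt, 3aKO and 1KI in run 1 to the left of the dotted line and wt, 3aKO and 3bKI in run 2 to the right; each panel has its own axis, points are arrays (circle female, triangle male, square unclear sex) and bars are means with SD. Met stands at 13.28 in 1 of the 5 1KI tumours and lies between 9.34 and 9.43 in the 4 3bKI tumours, below every normal liver.

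The comparison of 3aKO with wt asked what loss of E2f3a does in normal liver. It called 0 of the 10 receptors higher or lower by limma with Benjamini-Hochberg adjustment over all genes, where it called 0.0% of all genes. At an unadjusted p under 0.05 it held 2 receptors, Klb and Fgfr1, beside 7.46% of all genes. The groups overlapped for all 10 receptors, and did not overlap for 0.5% of all genes. The median log2 change was 0.039 over the receptors and 0.0017 over all genes. Comparing 1KI with wt and with 3aKO asked how these tumours differ from normal liver, and the comparisons share the 1KI arrays. In 1KI against wt 0 receptors were called by limma, beside 0.242% of all genes, and 1 receptor, Klb, beside 19% of all genes had an unadjusted p under 0.05. The groups overlapped for all 10, and did not for 1.98% of all genes. In 1KI against 3aKO 0 were called by limma, beside 0.0% of all genes, and 4 receptors, Klb, Fgfr1, Erbb3 and Fgfr4, beside 14.0% of all genes had an unadjusted p under 0.05. There Fgfr1 was above and Klb below 3aKO on every array, and groups did not overlap in 3.41% of all genes, higher in 1.45% and lower in 1.96%.

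The 3bKI tumours were compared with the same normal livers in run 2. Against wt, Met alone was called, lower, beside 2.07% of all genes, 1.09% higher and 0.978% lower. Met was also the only receptor whose groups did not overlap, beside 4.28% of all genes, 1.9% higher and 2.38% lower. At an unadjusted p under 0.05 there were 3 receptors, Met, Fgfr4 and Insr, beside 20.8% of all genes. Against 3aKO 5 of the 10 receptors were called, beside 9.18% of all genes: Klb, Fgfr4, Met and Insr were lower, where 6.27% of all genes were, and Fgfr1 was higher, where 2.92% were. The same 5 had no overlap between the groups, beside 15% of all genes, 6.03% higher and 8.95% lower. With Erbb3, 6 receptors had an unadjusted p under 0.05, beside 29.1% of all genes. The median log2 change was -0.30 over the receptors and 0.03 over all genes against 3aKO, and -0.19 and 0.01 against wt. The 5 calls against 3aKO ended under quantile normalization, with sex as a covariate (a fit that drops 3bKI 2), in females only, and with the replicate number as a block. Their log2 changes kept their sign in those fits, from -0.34 to -0.52 for the 4 that were lower and from 0.44 to 0.56 for Fgfr1. Among the 9 fits that each left out 1 array, Klb was called in 8, Met and Fgfr1 in 4, Insr in 3 and Fgfr4 in 2, and without 3aKO 4 none was. Leaving out 3aKO 5 or 3bKI 3 left only Klb, leaving out 3aKO 3 or 3bKI 4 left 2 calls, and leaving out 3aKO 2 left 3.

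**Figure D2:**
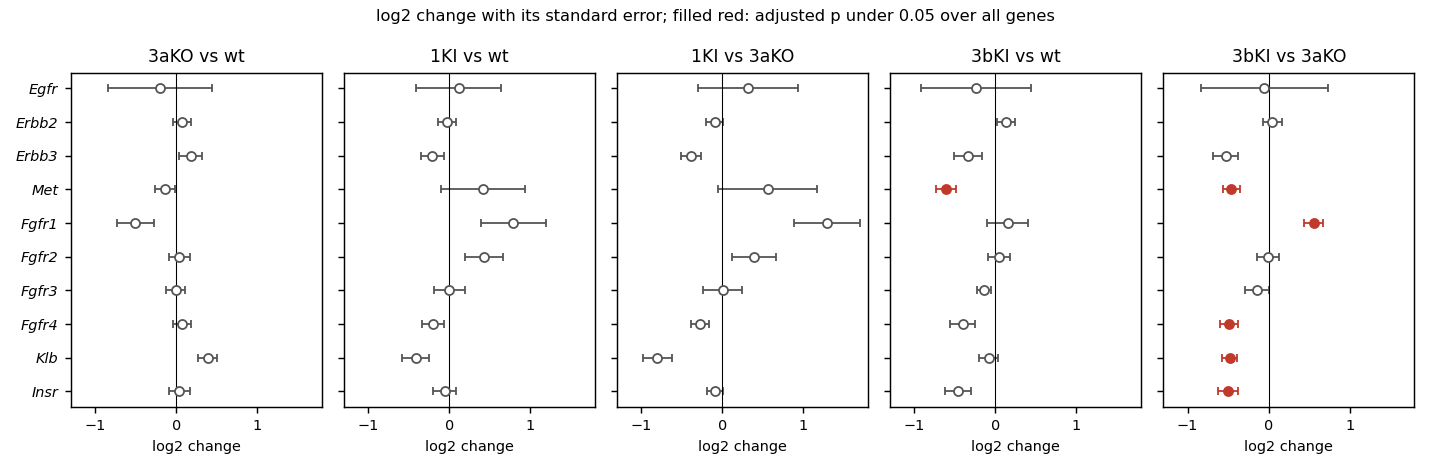
Log2 change of each receptor in the 5 comparisons, as a point with its SE, filled red where the adjusted p over all genes was under 0.05. Filled points appear in the 3bKI panels only, Met against wt and Met, Fgfr1, Fgfr4, Klb and Insr against 3aKO.

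Egfr encodes the receptor for EGF, TGF-alpha and related ligands. No group differed from another in it, since the spread within each group was larger than any difference between means. The run 1 means were 10.17 ± 1.15 (SD, n = 7) in wt, 9.97 ± 1.39 in 3aKO (SD, n = 5) and 10.28 ± 0.74 in 1KI (SD, n = 5), and the log2 change of 1KI against wt was 0.12 ± 0.52 (SE; limma, adjusted p = 0.916), and 0.55 ± 0.60 (SE) without 1KI 3 and 1KI 4. The run 2 values of the 3bKI tumours were 8.23, 11.61, 10.18 and 9.58, inside the range of 7.97 to 11.88 over the normal livers. The log2 change was -0.24 ± 0.67 (SE) against wt (limma, adjusted p = 0.869) and -0.05 ± 0.78 (SE) against 3aKO (limma, adjusted p = 0.97).

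Egfr was also set against sex. The 6 male livers had a mean of 10.94 ± 0.66 (SD, n = 6) in run 1 and the 6 female livers 9.23 ± 0.99 (SD, n = 6), with males from 10.12 to 11.88 and females from 8.04 to 10.39. The sexes overlapped, and the genotype-adjusted difference of 1.72 ± 0.44 (SE) on the log2 scale did not pass the test over all genes (limma, adjusted p = 0.0584 in run 1 and 0.0543 in run 2). In the same test 2.53% of all genes passed in run 1 and 2.56% in run 2. This comparison was chosen after the values were seen. The other members had adjusted p-values of 0.146 or more in it, with Fgfr1, Fgfr2 and Fgfr4 higher in males by 0.53 ± 0.18, 0.30 ± 0.10 and 0.25 ± 0.09 (SE) in run 1. The log2 change of 1KI against wt in males minus that in females was -2.01 ± 0.79 (SE) for Egfr, and this interaction, also added after the values were seen, did not pass (limma, adjusted p = 0.78). It was -0.79 ± 0.27 (SE) for Fgfr3, with a lower unadjusted p of 0.0124 by limma against 0.027 for Egfr and the same adjusted p. The male 1KI tumours include 1KI 3 and 1KI 4, which stood apart, and the female ones do not. Sex and that difference between tumours therefore cannot be told apart in either interaction. The male Egfr values in 1KI were 11.26, 9.86 and 9.39, the last 2 from 1KI 3 and 1KI 4.

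Egfr has 7 probe sets, and they did not read alike in the tumour 3bKI 2. The probe set used here was inside the normal range there at 11.61. A second probe set stood at 14.49 in the same tumour, against a highest normal value of 11.70 and a normal median of 9.52, which is 31.2-fold from that median. Another pair of probe sets was at 12.39 and 11.28, above their highest normal values of 11.05 and 9.67. The other 3bKI tumours were at 9.01, 10.35 and 10.36 on the second probe set, inside its normal range. Of the last 3 Egfr probe sets, 1 was at 6.12 in 3bKI 2, above its highest normal value of 5.77, and the others, at 6.57 and 4.33, were inside their normal ranges. The tumours and receptors whose further probe sets are described here and below were chosen after the values were seen. In run 2 the probe sets at 14.49, 12.39 and 11.28 in 3bKI 2 followed the one used with Pearson r of 0.783, 0.965 and 0.94. Those at 6.12, 6.57 and 4.33 had r of 0.485, 0.451 and 0.408. These r values are descriptions over 16 arrays that share 1 normalization. None of the other Egfr probe sets passed the test of 3bKI against either normal group. Of the 10 measured genes nearest Egfr in RefSeq's gene order, 5 on each side, 2 were above and 2 below all normal livers in 3bKI 2.

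Erbb2, which encodes the ligand-less partner of the other EGF receptors, was close in every group. Its run 1 means were 5.51 ± 0.21 (SD, n = 7) in wt, 5.57 ± 0.18 in 3aKO (SD, n = 5) and 5.48 ± 0.16 in 1KI (SD, n = 5), and in run 2 it was at 5.51 ± 0.16 (SD, n = 4) in 3bKI against 5.39 ± 0.18 (SD, n = 7) in wt. Its largest log2 change over the 5 comparisons was 0.13 ± 0.11 (SE), in 3bKI against wt (limma, adjusted p = 0.547). In 1KI against wt it was -0.028 ± 0.11 (SE) with all arrays and 0.07 ± 0.13 (SE) without 1KI 3 and 1KI 4. It is read by 1 probe set, whose level lay near the array medians of 5.34 to 5.53. Little signal and an unchanged level therefore cannot be told apart.

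Erbb3 encodes a neuregulin receptor whose own kinase is weak and which signals through its partners. In run 2 its values in 3bKI were 10.39, 9.69, 10.20 and 9.86, against 9.95 to 10.89 in wt with a median of 10.33 and 10.36 to 10.88 in 3aKO with a median of 10.54. The tumours 3bKI 2 and 3bKI 4 lay below all 12 normal livers and the others did not. The log2 change of -0.53 ± 0.15 (SE) against 3aKO did not pass (limma, adjusted p = 0.0587), and that of -0.34 ± 0.17 (SE) against wt did not either (limma, adjusted p = 0.282). The change against 3aKO was called in 1 of the 9 fits that each left out 1 array (limma, adjusted p = 0.0345). It was also called in 3 of the 11 other settings (limma, lowest adjusted p = 0.041). The second Erbb3 probe set pointed the other way. It was higher in 3bKI than in wt by 0.62 ± 0.11 (SE; limma over all probe sets, adjusted p = 0.0265), and the 2 probe sets had a Pearson r of -0.144 over the 16 arrays of run 2. That second probe set averaged 5.70 on those arrays, near the array medians of 5.34 to 5.43, where the one used averaged 10.35. In run 1 the log2 change of Erbb3 in 1KI was -0.21 ± 0.14 (SE) against wt and -0.39 ± 0.12 (SE) against 3aKO, neither past the threshold (limma, adjusted p = 0.418 and 0.238), and -0.24 ± 0.17 and -0.42 ± 0.14 (SE) without 1KI 3 and 1KI 4.

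Met encodes the receptor for hepatocyte growth factor. Its run 2 values in 3bKI were 9.35, 9.43, 9.35 and 9.34. They ran from 9.63 to 10.26 in wt with a median of 10.08, and they were 9.76, 9.59, 9.77, 10.11 and 9.90 in 3aKO. All 4 tumours lay below all 12 normal livers. The log2 change was -0.61 ± 0.12 (SE) against wt, a fold of 1.52 lower (limma, adjusted p = 0.0329), and -0.46 ± 0.10 (SE) against 3aKO, a fold of 1.38 lower (limma, adjusted p = 0.0283). The second Met probe set was lower in 3bKI than in 3aKO by 0.63 ± 0.11 on the log2 scale (SE; limma over all probe sets, adjusted p = 0.0147) and ran from 7.33 to 7.68 in the 4 tumours, and its log2 change of -0.64 ± 0.18 (SE) against wt did not pass (adjusted p = 0.091). The call against wt was kept in 4 of the 11 fits that each left out 1 array, with log2 changes from -0.66 to -0.56 and adjusted p-values from 0.0157 to 0.0881, and in 9 of the 11 other settings. The settings without the call were sex as a covariate and females only, both with a log2 change of -0.70 (limma, adjusted p = 0.11 and 0.0714), and no 3bKI array was read as male. The call was also lost without each of wt 1 to 4 and of 3bKI 2 to 4.

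In 1KI the Met values were 9.82, 9.52, 10.25, 13.28 and 9.73, against 9.75 to 10.36 in wt with a median of 10.20. The tumour 1KI 4 stood 3.30 log2 units above the normal median, a fold of 9.86, and 1KI 2 lay below all normal livers. The mean change against wt was 0.42 ± 0.52 (SE; limma, adjusted p = 0.669), and it was -0.27 ± 0.15 (SE) without 1KI 4 and -0.41 ± 0.14 (SE) without 1KI 3 and 1KI 4, past the threshold in none of these fits. The second Met probe set was at 11.99 in 1KI 4, where its highest normal value was 8.69. Among all genes, Met ranked 68th in its distance above the normal median in that tumour. The tumour stood apart as a whole: 20.0% of all genes were above every normal liver in 1KI 4, and 21.1% were below. The mean of 8 endothelial markers was 8.73 there, where 3aKO reached 8.05 and wt 7.99. The part of endothelial content in the values of this tumour was not tested. The neighbours of Met along the chromosome were read in RefSeq's gene order. Of the 10 measured neighbours, 5 on each side, Tes, Cav2 and Cav1 were above all normal livers by 2.91, 1.98 and 2.49 log2 units from their medians, Wnt2 was below all of them by a log2 difference of -2.98, and Capza2 and St7, which lie next to Met on the other side from Cav1, were inside the normal range.

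**Figure D3:**
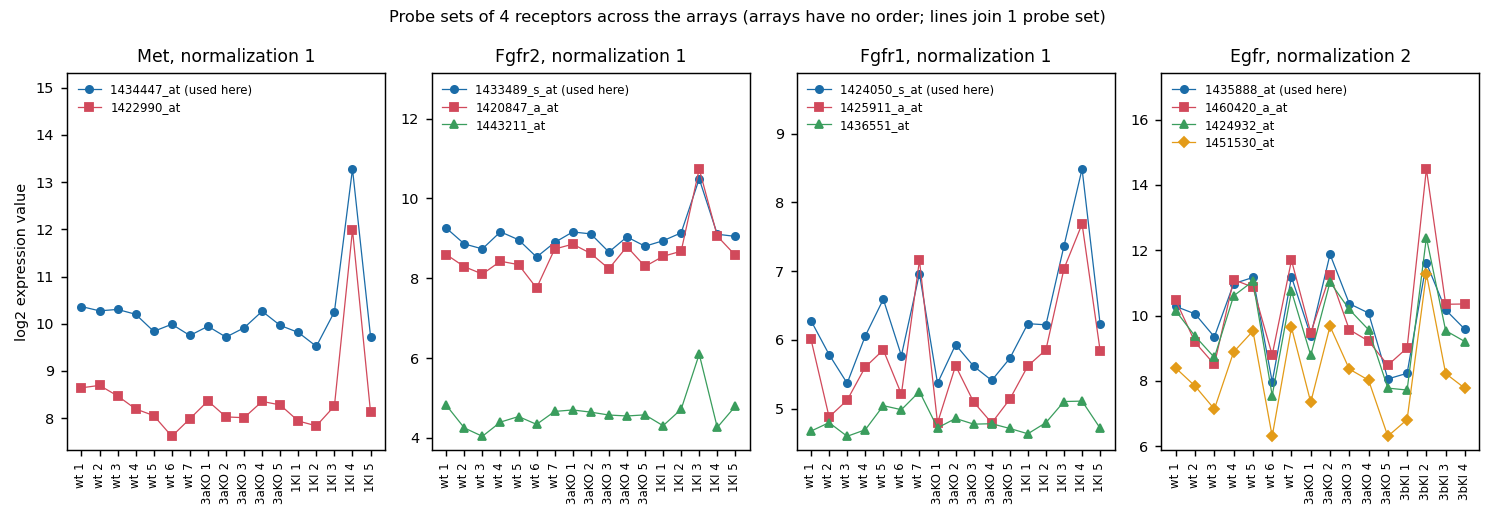
Log2 value of every array on the probe sets of Met, Fgfr2 and Fgfr1 in run 1 and of Egfr in run 2, each line 1 probe set and each point 1 array, with Egfr reduced to 4 of its 7 probe sets. Both Met probe sets peak in 1KI 4, all 3 Fgfr2 probe sets peak in 1KI 3, and 1 Egfr probe set reaches 14.49 in 3bKI 2 while the one used here stays at 11.61.

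Fgfr1 encodes the FGF receptor of mesenchymal and many other cells. In run 1 its values in 1KI were 6.24, 6.22, 7.37, 8.49 and 6.23, in 3aKO they were 5.37, 5.93, 5.62, 5.41 and 5.73, and in wt they ran from 5.37 to 6.96 with a median of 6.06. All 5 tumours were above all 5 3aKO livers, but 3 of them lay inside the wt range. The log2 change was 1.30 ± 0.41 (SE) against 3aKO (limma, adjusted p = 0.24) and 0.79 ± 0.40 (SE) against wt (limma, adjusted p = 0.292), and without 1KI 3 and 1KI 4 it was 0.62 ± 0.13 and 0.11 ± 0.28 (SE). The tumours 1KI 3 and 1KI 4 also led on a second probe set, at 7.04 and 7.69, where the highest normal value was 7.16, so only 1KI 4 exceeded the normal range there. On the third probe set both were inside the normal range. Of the 10 measured neighbours of Fgfr1 on the chromosome, 1 was above and 4 were below all normal livers in 1KI 4.

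In run 2 the Fgfr1 values of 3bKI were 5.97, 6.03, 6.28 and 5.78, all above the 5.20 to 5.69 of 3aKO, and within the 5.15 to 6.72 of wt. Fgfr1 was higher in 3bKI than in 3aKO by 0.56 ± 0.12 on the log2 scale (SE; limma, adjusted p = 0.0267), a fold of 1.47. Against wt the change was 0.15 ± 0.25 (SE; limma, adjusted p = 0.772). The second Fgfr1 probe set gave 0.66 ± 0.16 (SE) against 3aKO (limma over all probe sets, adjusted p = 0.0361), and the third gave 0.09 ± 0.07 (SE), which did not pass (adjusted p = 0.468). The third averaged 4.77 over the run 2 arrays, below the array medians of 5.34 to 5.43. The probe set used averaged 5.78 over those arrays and 5.46 in 3aKO, and the second averaged 5.37. Both therefore lay near the array medians too. In run 1 3aKO itself was lower than wt by a log2 change of -0.51 ± 0.23 (SE), which did not pass (limma, adjusted p = 0.663). The mean level of the stellate cell and fibroblast markers, with all 10 of 10 measured, ran from 7.75 to 8.63 in 3bKI, from 7.44 to 7.97 in 3aKO and from 7.31 to 7.76 in wt, and its part in the Fgfr1 values was not tested.

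Fgfr2 encodes the receptor for FGF7 and FGF10 in epithelia. Its values in 1KI were 8.94, 9.14, 10.49, 9.10 and 9.05, against 8.53 to 9.26 over the 12 normal livers, so 1 tumour was outside the normal range and the other 4 inside it. The tumour 1KI 3 was 2.95-fold above the normal median, and its other Fgfr2 probe sets were 5.11-fold and 2.9-fold above theirs. The log2 change in 1KI was 0.43 ± 0.24 (SE) against wt (limma, adjusted p = 0.331), and it was 0.14 ± 0.13 (SE) without 1KI 3 and 0.13 ± 0.14 (SE) without 1KI 3 and 1KI 4. Of the 10 measured neighbours of Fgfr2 on the chromosome, Ate1 and Plekha1 were above all normal livers in 1KI 3 and the rest were inside the normal range. In 3bKI the values were 8.75, 9.18, 8.98 and 8.72, and the log2 change was 0.04 ± 0.14 (SE) against wt and -0.0012 ± 0.14 (SE) against 3aKO (limma, adjusted p = 0.883 and 0.996).

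Fgfr3, an FGF receptor of cartilage and several epithelia, had an SD of 0.53 in 1KI against 0.14 in wt and 0.29 in 3aKO, around nearly the same mean. The 1KI values were 9.04, 8.67, 8.35, 7.86 and 9.16, while the normal livers ran from 8.25 to 9.04, so that 1KI 1 and 1KI 5 were at or just above the top of the normal range and 1KI 4 was below it. The female tumours 1KI 1 and 1KI 5 lay above all 3 male ones, which include 1KI 3 and 1KI 4. The log2 change against wt was 0.0003 ± 0.19 (SE; limma, adjusted p = 0.999). Without 1KI 3 and 1KI 4 the SD of the other 3 tumours was 0.25 and the change 0.34 ± 0.12 (SE), which did not pass either (limma, adjusted p = 0.428). In 3bKI it was -0.14 ± 0.09 (SE) against wt and -0.14 ± 0.15 (SE) against 3aKO (limma, adjusted p = 0.391 and 0.542).

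Fgfr4 and Klb encode the paired receptor for FGF15. In run 2 the Fgfr4 values of 3bKI were 9.14, 9.46, 8.93 and 9.25, those of 3aKO were 9.64, 9.82, 9.65, 9.72 and 9.59, and those of wt ran from 9.21 to 9.89 with a median of 9.49. All 4 tumours were below all 5 3aKO livers, and 2 of them, 3bKI 1 and 3bKI 3, were also below all wt livers. Fgfr4 was lower in 3bKI than in 3aKO by a log2 change of -0.49 ± 0.11 (SE; limma, adjusted p = 0.0279), a fold of 1.40. Against wt the change of -0.40 ± 0.15 (SE) did not pass (limma, adjusted p = 0.155). Of the 4 other Fgfr4 probe sets, 1 passed against 3aKO, at -0.48 ± 0.10 (SE; limma over all probe sets, adjusted p = 0.025), and the rest had log2 changes of -0.16 to -0.01 and did not (adjusted p = 0.406 or more). Of the rest, the one at -0.01 averaged 4.32 over the run 2 arrays, below the array medians of 5.34 to 5.43, and the others averaged 7.01. Fgfr4 lies on the chromosome of E2f3, 173 measured genes away. In 1KI the values ran from 9.25 to 9.91, and only 1KI 3 was below the normal range. The log2 change was -0.20 ± 0.14 (SE) against wt and -0.28 ± 0.12 (SE) against 3aKO (limma, adjusted p = 0.41 and 0.333), and -0.06 ± 0.15 and -0.14 ± 0.10 (SE) without 1KI 3 and 1KI 4.

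Klb was the member in which the normal groups lay furthest apart relative to their spread. Its run 1 values were 9.75, 9.27, 9.64, 9.52 and 9.43 in 3aKO and ran from 8.78 to 9.40 in wt with a median of 9.16, so that all but 1 of the 3aKO livers exceeded every wt liver. The log2 change of 0.39 ± 0.12 (SE) did not pass the test (limma, adjusted p = 0.641). In 1KI Klb was at 9.06, 8.48, 8.23, 9.20 and 8.63, all below the 3aKO livers and with 3 below every wt liver too. The log2 change was -0.81 ± 0.18 (SE) against 3aKO and -0.42 ± 0.17 (SE) against wt, neither past the threshold (limma, adjusted p = 0.163 and 0.213), and -0.80 ± 0.15 and -0.41 ± 0.15 (SE) without 1KI 3 and 1KI 4. With all 3 groups of the run in the fit the former passed (limma, adjusted p = 0.0475). In run 2 the 3bKI values were 8.97, 8.77, 9.06 and 8.91, below the 9.22 to 9.58 of 3aKO and within the 8.68 to 9.23 of wt. Klb was lower in 3bKI than in 3aKO by a log2 change of -0.48 ± 0.10 (SE; limma, adjusted p = 0.0222), a fold of 1.40, and against wt the change was -0.08 ± 0.12 (SE; limma, adjusted p = 0.732). The other Klb probe set gave -0.10 ± 0.16 (SE) against 3aKO and did not pass (limma over all probe sets, adjusted p = 0.724). That probe set averaged 4.30 over the run 2 arrays, below the array medians of 5.34 to 5.43. The run 2 means were 9.41 ± 0.15 (SD, n = 5) in 3aKO, 9.01 ± 0.22 (SD, n = 7) in wt and 8.93 ± 0.12 (SD, n = 4) in 3bKI. Neither 3bKI against wt in this run nor 3aKO against wt in run 1 passed the test.

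Insr encodes the insulin receptor. In run 2 its values were 9.41, 9.34, 8.93 and 9.01 in 3bKI, 9.69, 9.57, 9.46, 9.86 and 9.76 in 3aKO, and 9.24 to 9.99 in wt with a median of 9.57. All 4 tumours were below all 5 3aKO livers, and 3bKI 3 and 3bKI 4 were below every wt liver as well. The log2 change was -0.50 ± 0.12 (SE) against 3aKO, a fold of 1.41 (limma, adjusted p = 0.0388), and -0.46 ± 0.16 (SE) against wt, which did not pass (limma, adjusted p = 0.139). The 2 other Insr probe sets gave 0.12 ± 0.10 and -0.05 ± 0.09 (SE) against 3aKO and did not pass (limma over all probe sets, adjusted p = 0.449 and 0.782). Those probe sets averaged 5.38 and 4.03 over the run 2 arrays, at or below the array medians of 5.34 to 5.43. In 1KI Insr ran from 9.46 to 9.87, inside the normal range of 9.26 to 10.02, with a log2 change of -0.06 ± 0.14 (SE) against wt (limma, adjusted p = 0.842), and -0.15 ± 0.17 (SE) without 1KI 3 and 1KI 4.

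Other measures also differed between groups, and their correlation with the receptor values was not computed. The mean log2 level of the hepatocyte markers, with 9 of 10 measured, ran from 12.56 to 12.79 in 3bKI, from 12.98 to 13.13 in 3aKO and from 12.84 to 13.15 in wt in run 2, and 8 of the 9 had a log2 change below 0 against 3aKO, with Apob and Cps1 called. None of these markers was near the bottom of the scale on any array except Ass1, which was between 6.12 and 7.92 throughout. For beta-actin, the log2 ratio of its 3′ control probe set to its 5′ one, which is higher in less intact RNA, ran from 0.70 to 0.87 in 3bKI, from 1.06 to 1.35 in 3aKO and from 0.65 to 1.37 in wt. The mean of the cholangiocyte markers, with 6 of 8 measured, ran from 5.10 to 5.35 in 3bKI, above the 4.62 to 4.91 of 3aKO and the 4.71 to 5.05 of wt, and Cldn7 alone of the 6 was called, higher against both. The 3bKI group held no array read as male. The part of hepatocyte and cholangiocyte content, RNA quality and sex in the receptor changes was not tested beyond the fits named above. In these bulk samples fewer cells of a type and less RNA per cell cannot be told apart.

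The genes around the receptors were described by lists, beside the shares of all genes called that stand above. Over all genes, 54.7% had a log2 change above 0 in 3bKI against 3aKO, 53.1% in 3bKI against wt and 43.3% in 1KI against wt. Among 10 measured EGF family ligands, 10 had a log2 change above 0 in 3bKI against 3aKO with a median of 0.22, and 1 was called, Nrg1, a ligand of Erbb3, by 0.34 ± 0.09 (SE; limma, adjusted p = 0.0496). Its group means were 3.31 and 2.96, near the bottom of the scale. In 3bKI against wt, 9 of the 10 were above 0 and 0 were called by limma, with 3 at an unadjusted p under 0.05. Hbegf, which encodes heparin-binding EGF-like growth factor, was at 6.71 ± 0.35 (SD, n = 4) there against 6.23 ± 0.17 (SD, n = 7), with no overlap (limma, adjusted p = 0.0954). Of the 9 genes for HGF, its relative MSP and their activation, 0 were called by limma in any comparison, with 0 to 5 at an unadjusted p under 0.05. The lowest p among them in 1KI was that of St14, which encodes the membrane protease matriptase, with a log2 change of 0.44 ± 0.11 against wt and 0.61 ± 0.12 against 3aKO (SE; limma, adjusted p = 0.114 and 0.141), and 0.33 ± 0.12 and 0.50 ± 0.12 without 1KI 3 and 1KI 4. Of 12 FGF ligands, 1 was called in 3bKI against 3aKO, Fgf23, by 0.31 ± 0.08 (SE; limma, adjusted p = 0.0418) between means of 3.09 and 2.78. Fgf1 had a log2 change of -0.86 ± 0.28 in 1KI and -0.51 ± 0.17 in 3bKI against wt (SE; limma, adjusted p = 0.165 and 0.122), and the former was -0.34 ± 0.19 (SE) without 1KI 3 and 1KI 4.

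Among 25 other receptor kinases and co-receptors, 1 was called, Pdgfrb, the PDGF receptor of stellate cells, higher in 1KI than in wt by 0.76 ± 0.12 (SE; limma, adjusted p = 0.0285) on all 5 arrays. Without 1KI 3 and 1KI 4 its change of 0.75 ± 0.15 (SE) did not pass (limma, adjusted p = 0.101), nor did that of 0.46 ± 0.15 (SE) against 3aKO with them (adjusted p = 0.245). It is also 1 of the stellate cell markers, whose mean level ran from 8.07 to 8.47 in 1KI and from 7.43 to 7.87 in wt. Of 20 measured adaptors and docking proteins, 13 had a log2 change below 0 in 3bKI against 3aKO with a median of -0.22. Sos1, which loads RAS with GTP, was called lower against 3aKO by -0.87 ± 0.15 and against wt by -0.71 ± 0.13 (SE; limma, adjusted p = 0.0155 and 0.0274). Pik3cb, a catalytic subunit of PI3 kinase, was lower against 3aKO by -0.82 ± 0.15 (SE; limma, adjusted p = 0.0177). Of 10 measured RAS, MAPK and AKT kinases, Braf was lower in 3bKI than in 3aKO by -0.43 ± 0.08 (SE; limma, adjusted p = 0.0165), and 0 were called by limma in the other comparisons, with 0 to 4 at an unadjusted p under 0.05.

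Of 7 genes under FGF15 and bile acid control, 7 had a log2 change below 0 in 3bKI against 3aKO with a median of -0.39, and 3 were called. Abcb11, the bile salt export pump, changed by -0.67 ± 0.14, Slc10a1, the bile salt uptake carrier, by -0.67 ± 0.17, and Nr5a2, a regulator of bile acid synthesis, by -0.39 ± 0.11 (SE; limma, adjusted p = 0.0251, 0.0418 and 0.0496). Cyp7a1 and Cyp8b1, the bile acid synthesis enzymes that FGF15 lowers, were not called. In 3bKI against wt 4 of the 7 were below 0 and 3 above, with a median of -0.29. There 0 were called by limma, with 4 at an unadjusted p under 0.05. The 3aKO livers themselves had 6 of the 7 above 0 against wt, with a median of 0.175 and 0 called by limma. In 1KI 7 of 7 were below 0 against wt with a median of -0.30, and 0 were called by limma, with 2 at an unadjusted p under 0.05. Without 1KI 3 and 1KI 4 the median was -0.08, with 3 above 0. Of 11 measured insulin responsive genes, Pdk4, which shuts pyruvate dehydrogenase and falls with insulin, was higher in 3bKI by 1.44 ± 0.29 against wt and 0.99 ± 0.17 against 3aKO (SE; limma, adjusted p = 0.0317 and 0.0145), with no overlap in either. Foxo1, the factor that insulin removes from the nucleus, was lower against 3aKO by -0.60 ± 0.11 (SE; limma, adjusted p = 0.0166).

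The list of receptor and MAPK feedback inhibitors mixes genes that MAPK signalling induces, such as the Sprouty, Spred and Dusp genes, with ubiquitin ligases and phosphatases that act on receptors and are not known for that induction, such as Cbl, Rnf41 and Ptpn1. Of 26 measured, Spry1, a Sprouty gene, was called in 3bKI, higher by 0.63 ± 0.12 against wt and 0.52 ± 0.13 against 3aKO (SE; limma, adjusted p = 0.0252 and 0.0415), above every normal array. Dusp6, a phosphatase of ERK, was above all wt livers in all 5 1KI tumours, at 10.38 ± 0.47 (SD, n = 5) against 9.21 ± 0.40 (SD, n = 7), and its log2 change of 1.17 ± 0.23 (SE) missed the threshold (limma, adjusted p = 0.0575). Without 1KI 3 and 1KI 4 it was 0.91 ± 0.21 (SE; limma, adjusted p = 0.164). The 3aKO livers were at 9.70 ± 0.39 (SD, n = 5), and 1KI overlapped them, with a change of 0.68 ± 0.24 (SE; limma, adjusted p = 0.279). In 3bKI it was also above all wt livers, by 0.97 ± 0.24 (SE; limma, adjusted p = 0.0558), and overlapped 3aKO, with a change of 0.49 ± 0.25 (SE; limma, adjusted p = 0.216). Of the 9 tumours, 1KI 3 and 3bKI 2 had Dusp6 above all 12 normal livers. Tumour by tumour, which was looked at after the values were seen, 13 of the 26 were above all 12 normal livers in 1KI 3, where 15.4% of all genes were, and 10 in 1KI 4, where 20.0% were. The other 1KI tumours had 1, 1 and 3, beside 6.01%, 8.13% and 8.02% of all genes. In 3bKI 2 there were 10, beside 16.4% of all genes, and in the other 3bKI tumours 3, 6 and 4, beside 13.7%, 13.9% and 11.6%. These 3 tumours are the ones in which Fgfr2, Met with Fgfr1, and an Egfr probe set stood highest, and no test was made of that coincidence. Spry2 was at 7.71 in 1KI 3, 6.64 in 1KI 4 and 6.21 in 3bKI 2, where the normal livers did not exceed 5.70 in run 1 or 5.58 in run 2. Spry4 did not follow it, at 7.08, 6.755 and 6.88 in those tumours, where wt 1 was at 7.535 in run 1 and 7.17 in run 2. The same tumours were high in cell division markers, with a mean log2 level of 6.36, 6.86 and 8.01 against at most 5.42 in the normal livers of run 1 and 5.22 in those of run 2, and 3bKI 3 was at 6.39.

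**Figure D4:**
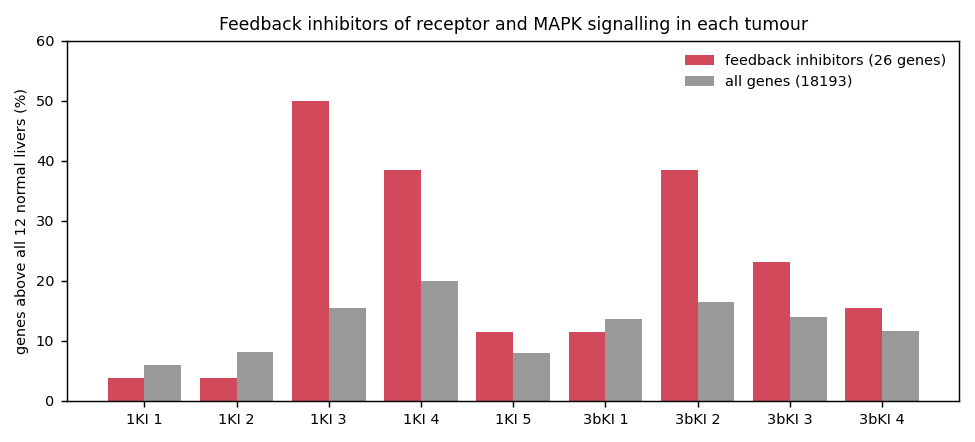
Share of genes above all 12 normal livers in each of the 9 tumours, as bars from 0, for the list of 26 inhibitors of receptor and MAPK signalling in red and for all 18193 genes in grey. The red bars are highest in 1KI 3 with 13 genes and in 1KI 4 and 3bKI 2 with 10 each.

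Of 11 measured MAPK output genes, Ier3, an immediate early gene, was called in 3bKI, by 1.14 ± 0.24 against wt and 1.01 ± 0.27 against 3aKO (SE; limma, adjusted p = 0.0364 and 0.0449), although the arrays of the groups overlapped. The median log2 change of the list in 1KI was 0.55 against wt, with 7 of 11 above 0, 0 called by limma and 5 at an unadjusted p under 0.05. It was 0.16 without 1KI 3 and 1KI 4, with 8 of 11 above 0. Etv5, a transcription factor induced by FGF signalling, was at 6.89 in 1KI 3 and 6.76 in 1KI 4, and no normal liver exceeded 5.95 in run 1. Etv4, of the same list, was at 6.06 and 5.895 there, where wt 7 was at 6.41. Tumour by tumour, 4, 3 and 3 of the 11 were above all normal livers in 1KI 3, 1KI 4 and 3bKI 2. The other 1KI tumours had 2, 0 and 2, and the other 3bKI tumours 3, 2 and 2, beside the shares of all genes given above.

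The genes whose pattern over the 17 arrays of run 1 was most like a receptor's were found for the 3 members with the largest SD, by the smallest mean absolute difference of gene-centred log2 values. For Egfr these were Nudt7, at 0.52, and C8b, at 0.52, where the mean absolute deviation of Egfr itself was 0.80, and over the 16 arrays of run 2 the differences were 0.72 and 0.67, beside 0.94 for Egfr itself. For Met, whose own deviation was 0.43 with 1KI 4 far above the rest, they were Mcf2l, at 0.25, and Ccl8, at 0.26. In run 2 the differences of 0.36 and 0.39 exceeded Met's own deviation of 0.26, so the likeness was not seen there. For Fgfr1, with an own deviation of 0.56, they were Dbndd2, at 0.27, and Mcam, at 0.27, with 0.26 and 0.30 in run 2, beside 0.34 for Fgfr1.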

How the data were processed

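RNA of 21 mouse livers or liver tumours was hybridised to Affymetrix arrays, from 5 ug of total RNA per the labels' protocols. The table deposited by the authors gives log2 expression per probe set, normalized in 2 runs per the labels, by a method not given in the sources used here. Median log2 values per array ran from 5.34 to 5.53, and the number of arrays limits the precision. Of 45101 probe sets, 34945 carried 1 symbol in GEO's platform annotation, 932 several and 9160 none, and 64 were array controls. The probe set with 1 symbol and the highest mean over all columns stood for each gene, which gave 18193 genes.

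For a comparison, the arrays of its 2 groups in 1 run entered limma 3.58.1 (R 4.3.3; lmFit, then eBayes), two-sided, with Benjamini-Hochberg adjustment over all genes or, where said, all probe sets. A call is an adjusted p under 0.05. The fit was tested on simulated data. Replicate numbers were taken as names, since same-numbered arrays did not deviate together (r over 0.1) in every pair of any comparison (r from -0.469 to 0.297 in 3aKO against wt, and 0.129, 0.114, 0.278 and 0.063 in 3bKI against 3aKO, where the last did not exceed 0.1). This rule does not settle whether the numbers pair the arrays in 3bKI against 3aKO, where the receptor calls ended with the replicate block.

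The members, the gene lists and the tests were chosen with earlier results of these data known. The genes named are all members, the called genes of each list or those of lowest p in a comparison, and the 2 genes most like each of the 3 most variable members. Cyp7a1, Spry2, Spry4, Etv4, Etv5, the neighbours of Egfr, Met, Fgfr1 and Fgfr2 and all values of single tumours were chosen after their values were seen. Alternatives were quantile normalization, centring, leaving out the dimmest 40% of genes, the mean of probe sets, every probe set tested, all 3 groups in 1 fit, eBayes with trend and robust, array weights, replicate and sex terms, each sex alone and, for list genes, both 1KI 3 and 1KI 4 left out (these added after the data were seen), and leaving out arrays.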

Additional observations from a re-analysis of the deposited data

Results flagged for a closer look

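Dixon's test at 95% confidence was applied to each member within each group and run, 60 groups in all with the wt and 3aKO arrays counted in both runs, and 3 held an array far from the rest. Chance gives about 1 in 20. Met in 1KI 4 was at 13.278, where the nearest other 1KI tumour was at 10.253. Fgfr2 in 1KI 3 was at 10.489, with the nearest at 9.137. Met in 3bKI 2 was at 9.426, with the nearest at 9.352, a small gap in a group whose whole range was 0.09.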

How the results depend on the processing

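Klb in 1KI against 3aKO was called with all 3 groups in the fit, which gave a count of 1 receptor. The count in 3bKI against wt was 0 with sex as a covariate and 0 in females only, and 0 to 1 with 1 array left out. In 3bKI against 3aKO the count of 5 became 0 under quantile normalization, 0 with the replicate block, 0 with sex as a covariate, 0 in females only, 3 with the mean of probe sets and 3 with all 3 groups in the fit, and it was 0 to 5 with 1 array left out. Erbb3, which is not among the 5, was called there in 3 of the 11 other settings and in 1 of the 9 fits with 1 array left out. The adjusted p-values of the 5 receptors were 0.0562 to 0.131 under quantile normalization and 0.0651 to 0.0934 with the replicate block. The lowest correlation of same-numbered deviations was -0.194 in 1KI against wt, -0.079 in 1KI against 3aKO and -0.147 in 3bKI against wt. In 3bKI against 3aKO it was 0.063, and the other 3 were 0.114 to 0.278. No more than 2 arrays of a comparison correlated best with their own number. Whether the replicate numbers pair the arrays in 3bKI against 3aKO was not settled by these values. Over all genes, 1671 were called in 3bKI against 3aKO, and 844 under quantile normalization, 3435 probe sets with every probe set tested, 50 with the replicate block, 145 with sex as a covariate, 31 in females only and 490 to 1440 with 1 array left out. In 3bKI against wt 377 were called, and 745 with centring, 766 with array weights, 996 with all 3 groups in the fit, 694 with the replicate block, 67 with sex as a covariate, 16 in females only and 49 to 848 with 1 array left out. In 1KI against wt 44 were called, and 313 with all 3 groups in the fit, 69 with array weights, 72 with every probe set tested, 1 with the replicate block, 93 with sex as a covariate, 13 in females only, 8 in males only and 2 to 69 with 1 array left out. In 1KI against 3aKO 0 were called by limma, 57 with all 3 groups in the fit, 23 without 1KI 3 and 1KI 4, 15 with array weights, 11 with every probe set tested and 0 to 6 in the other settings. In 3aKO against wt 0 were called by limma and 0 to 2 under the alternatives. The cause of these differences was not tested; the fits with sex drop 3bKI 2 and those in 1 sex drop arrays.

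Of 1145 values of single receptors under alternatives, 104 had the other sign, 49 of them with 1 array left out and 55 in other settings. None was called under the alternative, and no called change took the other sign. All are log2 changes. With quantile normalization these were Fgfr2 at -0.018 and Insr at -0.0064 in 3aKO against wt, Fgfr3 at -0.065 in 1KI against wt, Fgfr3 at -0.0024 in 1KI against 3aKO, Egfr at 0.078, Erbb2 at -0.057 and Fgfr2 at 0.12 in 3bKI against 3aKO. With the mean of probe sets these were Fgfr3 at 0.13 in 3aKO against wt, Insr at 0.087 in 1KI against wt, Insr at 0.041 in 1KI against 3aKO, Egfr at 0.066 and Erbb3 at 0.14 in 3bKI against wt, Egfr at 0.35 and Fgfr2 at 0.0036 in 3bKI against 3aKO. With array weights these were Fgfr2 at -0.0065 and Insr at -0.019 in 3aKO against wt, Erbb2 at 0.012 and Met at -0.13 in 1KI against wt, Fgfr2 at -0.033 in 3bKI against wt. With the replicate number as a block these were Fgfr2 at -0.043, Fgfr3 at 0.024, Fgfr4 at -0.030 and Insr at -0.082 in 3aKO against wt, Egfr at -0.10 in 1KI against wt, Fgfr2 at -0.027 in 3bKI against wt. With sex as a covariate these were Egfr at 0.095 and Fgfr3 at 0.014 in 3aKO against wt, Egfr at 0.21 in 3bKI against wt, Egfr at 0.060 and Fgfr3 at 0.0090 in 3bKI against 3aKO. With the run 2 values of the same arrays these were Fgfr3 at 0.00080 in 3aKO against wt. With females only these were Egfr at 0.10 and Insr at -0.0051 in 3aKO against wt, Erbb2 at 0.14, Met at -0.42 and Fgfr4 at 0.048 in 1KI against wt, Met at -0.17 in 1KI against 3aKO, Egfr at 0.21 in 3bKI against wt, Egfr at 0.060 and Fgfr3 at 0.0090 in 3bKI against 3aKO. With males only these were Egfr at 0.090, Erbb2 at -0.045 and Fgfr3 at 0.19 in 3aKO against wt, Egfr at -0.74 and Fgfr3 at -0.31 in 1KI against wt, Egfr at -0.83 and Fgfr3 at -0.50 in 1KI against 3aKO. With centring each array these were Fgfr3 at -0.042 in 1KI against wt, Fgfr3 at -0.019 in 1KI against 3aKO, Fgfr2 at -0.031 in 3bKI against wt, Erbb2 at -0.010 in 3bKI against 3aKO. Leaving out both 1KI 3 and 1KI 4 gave Erbb2 at 0.070 and Met at -0.41 in 1KI against wt, Erbb2 at 0.0018 and Met at -0.27 in 1KI against 3aKO. With 1 array left out the values ran in 3aKO against wt Egfr from -0.68 to 0.27, Erbb2 from -0.0035 to 0.12, Fgfr2 from -0.026 to 0.11, Fgfr3 from -0.11 to 0.085, Insr from -0.034 to 0.093. They ran in 1KI against wt Egfr from -0.24 to 0.34, Erbb2 from -0.093 to 0.013, Met from -0.27 to 0.67, Fgfr3 from -0.13 to 0.19. They ran in 1KI against 3aKO Egfr from -0.16 to 0.79, Met from -0.13 to 0.81, Fgfr3 from -0.13 to 0.20. They ran in 3bKI against wt Egfr from -0.81 to 0.31, Fgfr2 from -0.048 to 0.11. They ran in 3bKI against 3aKO Egfr from -0.62 to 0.50, Erbb2 from -0.0030 to 0.13, Fgfr2 from -0.093 to 0.060.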
